A study of Mus musculus with 16 samples.

Results

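The genes described here encode the proteins of the large (60S) subunit of the cytoplasmic ribosome. They were chosen by name, as the protein-coding rows of the deposited tables that carry 1 of 45 symbols from Rpl3 to Rplp2. For 43 of the 45 symbols a row was used, and Rpl13 and Rpl24 were not analysed here. The 3 tables together list 32826 mouse genes. The study measured newly synthesized RNA in mouse E14 embryonic stem (ES) cells that lacked a subunit of SAGA, of ATAC or of both. These are histone-acetylating coactivators of RNA polymerase II, and the libraries show how the loss of each bears on ongoing transcription. New RNA was labelled for 15 min with 4-thiouridine (4sU), a uridine analogue, and purified. The 4sU RNA gave 14 libraries, and 2 more held total RNA from wild-type (WT) cells. Each of the 8 groups had 2 libraries, and the sequencing was done in 3 projects.

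Project 1 held WT total RNA, WT 4sU RNA and AID-Tada3 cells. Project 2 held WT, AID-Yeats2 and Supt7l-/- cells, and project 3 held WT and AID-Zzz3 cells. Tada3 is a subunit of the acetyltransferase module that SAGA and ATAC share, Yeats2 and Zzz3 are subunits of ATAC, and Supt7l is a subunit of SAGA. AID denotes an auxin-inducible degron, a tag through which auxin triggers the degradation of the protein that carries it. All cells of all groups, WT and Supt7l-/- included, had auxin for 24 h and the medium held serum, LIF and the inhibitors PD0325901 and CHIR99021. The mutant libraries came from 2 clones per line. The WT libraries came from plain E14 cells (replicate 1) and from E14 cells that overexpress Tir1 and BirA (replicate 2). The labels do not say which promoter drives that transgene. With 2 libraries a group, p-values rest on the spread between the 2 clones or lines of each group in a fit.

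Ribosomal proteins of the large subunit surround the rRNA that catalyses peptide bond formation. They line the tunnel through which the new chain leaves, and they build the stalks on which translation factors and tRNA move. They are needed in near equal numbers, and their genes are transcribed strongly in growing cells such as ES cells. Many of these genes are short, start in a run of pyrimidines and carry snoRNAs in their introns. Mammalian genomes also hold many processed pseudogenes of them, which complicates the assignment of reads.

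Start regions are shown for 5 members with low values in both ATAC mutants, as described further on (Rpl9, Rpl38, Rpl31, Rpl36a and Rpl37a), and for 3 that were not called in either (Rpl4, Rpl13a and Rplp0). Each stretch runs from 40 bases before to 20 bases after a RefSeq start (GRCm38.p6), 5′ to 3′ on the gene's strand, with the longest run of C and T in capitals. The stretches lie at chr5:65391412-65391471 (Rpl9, minus strand), chr11:114668540-114668599 (Rpl38, plus), chr1:39367811-39367870 (Rpl31, plus), chrX:134585614-134585673 (Rpl36a, plus), chr1:72711220-72711279 (Rpl37a, plus), chr9:64173347-64173406 (Rpl4, plus), chr7:45128726-45128785 (Rpl13a, minus) and chr5:115559427-115559486 (Rplp0, plus). The capital run has 4 bases in Rpl9, 5 in Rpl37a, 6 in Rpl36a, 7 in Rplp0, 10 in Rpl38, 13 in Rpl31, and 14 each in Rpl4 and Rpl13a.
Rpl9: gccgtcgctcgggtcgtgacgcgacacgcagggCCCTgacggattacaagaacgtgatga
Rpl38: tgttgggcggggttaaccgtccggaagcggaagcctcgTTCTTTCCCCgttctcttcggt
Rpl31: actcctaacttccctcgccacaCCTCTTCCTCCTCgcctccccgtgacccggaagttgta
Rpl36a: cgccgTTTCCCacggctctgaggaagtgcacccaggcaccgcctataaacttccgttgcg
Rpl37a: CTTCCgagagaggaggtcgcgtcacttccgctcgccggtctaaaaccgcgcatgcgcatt
Rpl4: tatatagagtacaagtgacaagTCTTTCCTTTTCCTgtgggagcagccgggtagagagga
Rpl13a: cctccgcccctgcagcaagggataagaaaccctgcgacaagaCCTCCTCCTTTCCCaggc
Rplp0: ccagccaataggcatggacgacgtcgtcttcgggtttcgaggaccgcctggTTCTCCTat

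Promoter windows of 300 bases (250 before to 50 after the start) were matched by symbol for 32 of the 43 members. In 21 of the 32 the RefSeq start lay within 50 bases of the gene's start in GENCODE M21. The distance was 56 bases in Rpl38, shown above, and 2614 in Rpl18, so some windows may not hold the start used. The ETS family core CCGGAAG, searched on both strands, stood in the windows of 13 of the 32 members (40.6%) and in 8.86% of 32851 windows of all genes; it can be read in the Rpl38 and Rpl31 stretches above. The Sp1 core GGGCGG stood in 21 members (65.6%) against 35.7% of all windows, and the E-box CACGTG in 5 (15.6%) against 7.15%. The YY1 core AAGATGG stood in 3 members (9.38%) against 6.34%, and TATAAA in 3 (9.38%) against 13.6%. A run of at least 8 C or T within the stretch shown above stood in 17 of 32 members (53.1%) against 24.2% of all windows. These shares describe letters in the windows and not binding.

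The members' genes lie on 16 chromosomes and span 849 to 25164 bases, with a median of 3243. In 18 of the 43 genes the span holds at least 1 annotated snoRNA, and 37 snoRNAs lie in them in all. The members share sequence with other transcripts: for each gene the share of the 50-base stretches of its coding sequence that occur exactly in a transcript of another gene was counted. The median of that share was 91.6%, and in 16 members all such stretches were shared, Rpl9, Rpl38, Rpl36a, Rpl5 and Rpl11 among them. Rpl41 had the lowest share at 4.49%, then Rpl8 with 8.73% and Rpl4 with 20.3%. How the authors treated reads that match several places is not given in the sources used here, so the level of a member with much shared sequence is uncertain. Counts on rows named as pseudogenes of a member came to 0.300% to 0.658% of the members' own counts per library. Such rows, named as the member followed by -ps, numbered 93, 43 and 48 in projects 1, 2 and 3. Rpl7a alone shares stretches with 123 genes, so copies under other names were not counted here.

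In WT cells newly made RNA of the members differed widely in level. Scaled to transcript length and library size (RPKM, with the median transcript length of the deposited tables), the median over the 6 WT 4sU libraries was highest for Rpl3, at 332 with a range of 270 to 429. Rpl4 followed with a median of 251 RPKM, Rpl5 with 199, Rpl31 with 158 and Rpl23 with 157. Rpl3, Rpl4 and Rpl5 encode a protein near the catalytic centre, a protein of the exit tunnel and a partner of 5S rRNA. The lowest medians were those of Rpl36 at 13.3 RPKM (7.89 to 23.0), Rpl13a at 14.5, Rpl29 at 17.7, Rpl7a at 25.3 and Rpl36a at 40.9. The highest median was 25.0 times the lowest. In this order the ranges of 40 of the 42 neighbouring pairs overlapped, so that the rank of a single member is not settled. The 2 pairs without overlap were Rpl5 with Rpl31 and Rpl7a with Rpl29. They do not part the order. The range of Rpl5 (from 175 RPKM) overlapped that of Rpl23 (to 195), and the range of Rpl7a (from 20.2) that of Rpl36 (to 23.0).

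Across the series, 4sU libraries held 8268061 to 15994518 mouse gene counts and total RNA libraries 4903998 and 6378707. A member had 10 to 5160 counts in a 4sU library. Libraries of a group correlated at 0.971 to 0.994 over genes, in log2 of the counts scaled to library size (CPM), and differed by more than counting noise, with chi-square values of 3.14 to 14.9 per degree of freedom. The 9 ES cell markers measured summed to 2461 to 3081 CPM in the 4sU libraries, 5 primitive endoderm markers to 8.94 to 22.9, up to 5 fibroblast markers to 0.256 to 10.3, and the 1 neural marker with a row, Pax6, to 0.753 to 8.46. The targeted genes give only a partial check of the labels, because the degron acts on protein. Zzz3 RNA was lower in AID-Zzz3 cells (log2 fold change −0.58 ± 0.09 SE, adjusted p = 0.0340, edgeR). Tada3 RNA in AID-Tada3 cells (−1.28 ± 0.17, adjusted p = 0.0577) and Yeats2 RNA in AID-Yeats2 cells (−0.74 ± 0.29, adjusted p = 0.284) did not pass the test. Supt7l RNA in the libraries labelled Supt7l-/- was 8.87 and 14.1 CPM against 13.9 and 14.3 in WT (−0.29 ± 0.20, adjusted p = 0.479); which bases are deleted is not given in the sources used here, so this is no check of that label.

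Loss of Yeats2 went with less new RNA of the large subunit genes. Together the 43 members took 0.264% and 0.313% of mouse counts in the WT libraries of project 2, and 0.189% and 0.196% in the AID-Yeats2 clones. Both clones lay below both WT libraries, and the mean share was 66.8% of WT. In edgeR's quasi-likelihood test, with p-values adjusted over all 14513 genes and a threshold of 0.05, 29 of 43 members were lower and none was higher. Among all genes 3.32% were lower and 3.92% higher. The median log2 fold change of the members was −0.78, or 58.1% of the WT level, beside −0.00 for all genes tested. All 43 members were below 0, and in 38 both clones lay below both WT libraries, as in 25.8% of all genes. The 5 primitive endoderm markers did not overlap between the groups either, summing to 15.8 and 20.3 CPM in the clones against 11.6 and 12.9 in WT, where Sox17 was at 0 in 1 library; their part in the result was not tested. The ES cell markers summed to 2958 and 3026 CPM against 2790 and 2994.

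**Figure D1:**
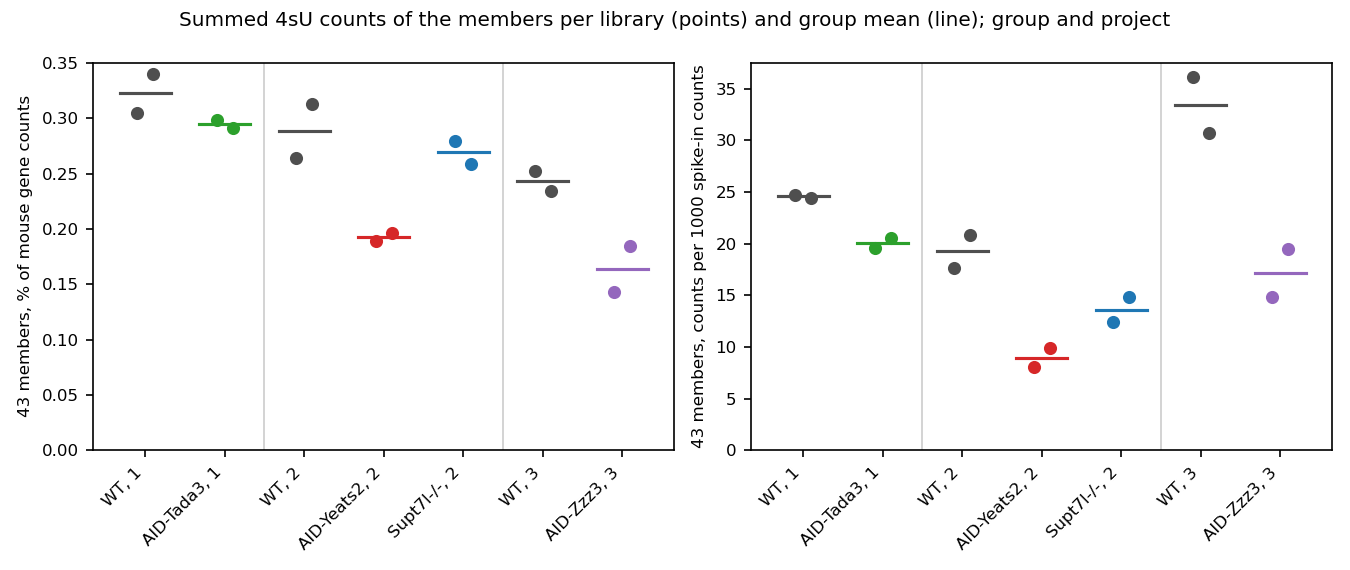
Summed counts of the 43 members in each 4sU library, as a percent of mouse gene counts (left) and per 1000 spike-in counts (right). Points are libraries, lines are means of 2 libraries, and the x axis gives the group and its sequencing project. In both panels the AID-Yeats2 and AID-Zzz3 clones lie below the WT libraries of their project, with shares of 0.189% and 0.196% in AID-Yeats2.

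Per count of the spike-in, RNA of labelled Drosophila S2 cells (project 1) or S. pombe cells (projects 2 and 3), the deficit was larger. AID-Yeats2 clones had 8.08 and 9.88 member counts per 1000 spike-in counts against 17.6 and 20.9 in WT, a mean of 46.6% of WT. On this scale the median of all genes also moved, by −0.50 in log2, and the members' median was −1.27. With spike-in scaling 40 of 43 members were lower, beside 23.5% of all genes. Values below are on the scale that sets the bulk of mouse genes to no change unless the spike-in is named.

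The 6 members with the smallest p in AID-Yeats2 were Rpl31, Rpl38, Rpl9, Rpl27, Rpl34 and Rpl37a. Rpl31, a protein at the rim of the exit tunnel, was at 85.0 and 91.6 CPM in WT and at 41.6 and 42.5 in the clones, a log2 change of −1.07 ± 0.09 (SE, adjusted p = 1.73e-05). Rpl38, known from the Tail-short mouse, whose skeleton is malformed, was at 47.6 and 54.2 CPM in WT and at 21.4 and 21.2 in the clones (−1.26 ± 0.11, adjusted p = 1.73e-05). Rpl9, a protein beside the factor-binding site, was at 68.8 and 75.1 CPM in WT against 23.3 and 31.1 (−1.40 ± 0.12, adjusted p = 2.20e-05). In these 3 genes the clones lay far below both WT libraries, and no values overlapped. Rpl27 was at 40.7 and 41.4 CPM in WT and at 17.3 and 18.1 in the clones (−1.21 ± 0.11). Rpl34 was at 55.4 and 61.2 CPM against 28.7 and 28.5 (−1.03 ± 0.10), and Rpl37a at 37.9 and 44.6 against 15.6 and 16.3 (−1.37 ± 0.14). The adjusted p of Rpl27, Rpl34 and Rpl37a was 2.50e-05, 4.49e-05 and 4.59e-05, and the fall of all 6 passed the test without any 1 of the 4 libraries.

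The other members that fell ranged from −0.49 (Rpl10) to −1.73 (Rpl29). Of the 29 calls, those of Rpl3, Rpl6, Rpl7a, Rpl17 and Rpl41 were lost without AID-Yeats2 replicate 1, with adjusted p-values of 0.0525 (Rpl17) to 0.131 (Rpl6). The call of Rpl8 was lost without AID-Yeats2 replicate 2, that of Rpl10 without either clone, and that of Rplp2 without either clone or WT replicate 2. Rpl29, a small basic protein, had few reads, at 9.57 and 11.5 CPM in WT against 2.79 and 3.55, with a SE of 0.23. The 14 members that did not pass the test had a median of −0.24. The 3 nearest to 0 were Rpl4, at 230 and 277 CPM in WT against 254 and 242 in the clones (−0.03 ± 0.08, adjusted p = 0.867), Rpl23a (−0.09 ± 0.11, adjusted p = 0.715) and Rpl13a (−0.13 ± 0.22, adjusted p = 0.782). For Rpl4, second in level per length, the libraries of both groups overlapped, while its neighbour in the exit tunnel, Rpl17, fell by 0.78 ± 0.12 (adjusted p = 0.00142).

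**Figure D2:**
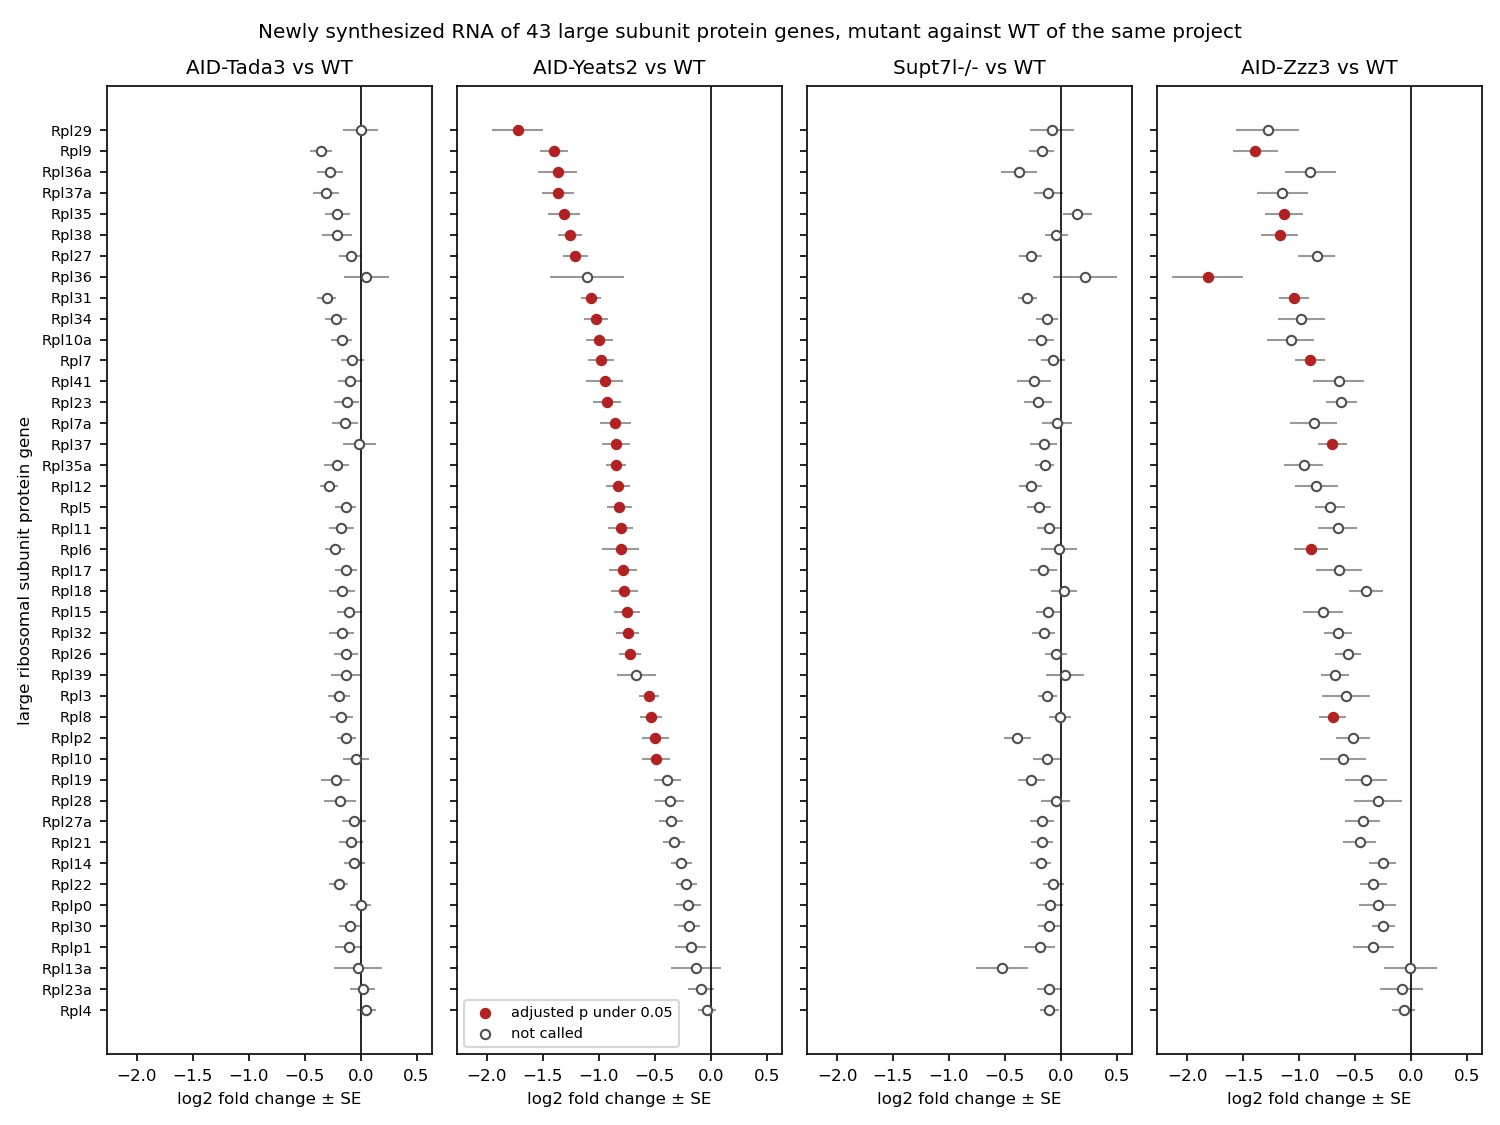
Log2 fold change of each of the 43 members (rows, ordered by AID-Yeats2) in 4 mutants against WT of the same project, with bars of 1 SE from edgeR; filled points have an adjusted p under 0.05. Filled points number 29 in AID-Yeats2, 9 in AID-Zzz3 and 0 in AID-Tada3 and Supt7l-/-, and Rpl4 and Rpl23a lie near 0 in each panel.

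By role, both partners of 5S rRNA fell in AID-Yeats2. These are Rpl5 and Rpl11, which when free of the ribosome bind Mdm2. Rpl5 was at 172 and 219 CPM in WT against 103 and 118 (−0.82 ± 0.11, adjusted p = 0.00184), and Rpl11 at 57.1 and 62.5 against 31.4 and 37.0 (−0.81 ± 0.11, adjusted p = 0.000558). A list of 4 genes, called stalk genes here, covers the acidic stalk and factor binding, where elongation factors dock. Of these, Rpl12 fell by 0.83 ± 0.11 (adjusted p = 0.000325), from 73.3 and 91.9 CPM to 45.7 and 47.0. Rplp2 was lower by −0.50 ± 0.12 (adjusted p = 0.0255), from 57.0 and 75.1 CPM to 47.4 and 46.2, a call kept in 1 of the 4 fits that leave out a library. Rplp0, the base of the stalk, was at 47.8 and 59.1 CPM in WT and 48.9 and 43.6 in the clones (−0.21 ± 0.12, adjusted p = 0.342). Rplp1 was at 38.9 and 52.2 CPM against 44.1 and 36.4 (−0.18 ± 0.14, adjusted p = 0.517). The new RNA of the 4 stalk genes thus ranged from a clear fall in Rpl12 to overlapping values in Rplp0 and Rplp1.

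Of the 9 genes of the exit tunnel and its rim 4 fell, Rpl17, Rpl26, Rpl31 and Rpl35, with a median of −0.67 over the 9. Rpl35, where chaperones meet the emerging chain, fell most in this group (−1.31 ± 0.14, adjusted p = 0.000145), from 40.2 and 48.0 CPM to 15.1 and 20.4. Its neighbour at the same site, Rpl23a, was at 35.3 and 40.6 CPM in WT and 34.0 and 37.4 in the clones, and these values overlapped. Of the 7 genes measured from the catalytic core, the joining face and the L1 stalk 6 fell, with a median of −0.55. Rpl10a, the protein of the L1 stalk, fell by 1.00 ± 0.12 (adjusted p = 0.000209), and Rpl3, beside the catalytic centre, by 0.55 ± 0.09 (adjusted p = 0.00200). Rpl30, a protein of a bridge between the subunits, had a value of −0.19 ± 0.10 (adjusted p = 0.273). Of the 21 other proteins 15 fell, with a median of −0.85.

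Loss of Zzz3, another ATAC subunit, went with changes of like size but with more spread between clones. The members took 0.252% and 0.234% of mouse counts in the WT libraries of project 3 and 0.143% and 0.185% in the AID-Zzz3 clones, a mean of 67.5% of WT. Per 1000 spike-in counts the clones had 14.9 and 19.5 member counts against 36.1 and 30.8 in WT, a mean of 51.3%. All 43 members were below 0, with a median of −0.65 beside 0.00 for all 14529 genes tested. In 39 members both clones lay below both WT libraries, as in 21.9% of all genes. The test called 9 members lower and none higher, beside 0.303% of all genes lower and 0.681% higher. At an unadjusted edgeR p under 0.05, 35 members were lower, beside 769 of all 14529 genes. The primitive endoderm markers summed to 18.2 and 18.3 CPM in the clones against 11.3 and 13.9 in WT, and the ES cell markers to 2554 and 2913 against 2828 and 2908; their part was not tested.

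This count moved with the fit. It was 27 in the joint fit of all 14 4sU libraries (1.67% of all genes lower), 20 with DESeq2 (0.626%) and 32 with no filter on low counts (1.19%). It was 40 with spike-in scaling (24.7%) and 5 with a stricter filter, a minimum of 50 counts throughout 1 of the groups (0.327%). Without AID-Zzz3 replicate 1, the clone with the lower share, the main calls were not kept, and calls over all genes were also fewer. Most of the main calls were also lost without AID-Zzz3 replicate 2, and some without WT replicate 1. The members' median was −0.55 without AID-Zzz3 replicate 1 and −0.94 without AID-Zzz3 replicate 2. It was −0.59 and −0.72 without WT replicate 1 or 2.

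The 9 members called in AID-Zzz3 were Rpl31, Rpl38, Rpl7, Rpl9, Rpl35, Rpl6, Rpl8, Rpl36 and Rpl37. Rpl31 was at 75.0 and 68.5 CPM in WT and at 31.0 and 38.1 in the clones (−1.05 ± 0.13, adjusted p = 0.0200). Rpl38 was at 47.8 and 37.8 CPM against 17.2 and 20.6 (−1.17 ± 0.17, adjusted p = 0.0227), and Rpl9 at 55.0 and 57.6 against 16.4 and 26.0 (−1.39 ± 0.20, adjusted p = 0.0249). The clones lay below WT in all 3 genes, and the clone labelled replicate 1 had the lowest value in each. Rpl35 was at 37.6 and 33.2 CPM against 13.9 and 18.0 (−1.14 ± 0.17, adjusted p = 0.0256). Rpl7, a protein that binds several rRNA domains, was at 45.7 and 49.3 CPM against 23.6 and 27.0 (−0.90 ± 0.13, adjusted p = 0.0246), and Rpl6 at 44.6 and 42.6 against 20.5 and 26.2 (−0.89 ± 0.15, adjusted p = 0.0383). Rpl36 had the largest fold change (−1.82 ± 0.32, adjusted p = 0.0446), but on 69 and 52 counts in WT and 10 and 23 in the clones.

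The members nearest to 0 were again Rpl13a (−0.01 ± 0.24, adjusted p = 0.996), Rpl4 (−0.06 ± 0.10, adjusted p = 0.854) and Rpl23a (−0.08 ± 0.19, adjusted p = 0.908). Rpl4 was at 217 and 203 CPM in WT and at 191 and 211 in the clones, which overlapped. Of the 5S rRNA partners, Rpl5 was at 147 and 156 CPM in WT and 79.8 and 103 in the clones (−0.72 ± 0.13, adjusted p = 0.0558), and Rpl11 at 50.2 and 44.0 against 24.7 and 34.8 (−0.65 ± 0.17, adjusted p = 0.156). Neither passed the test, although the groups did not overlap in either gene. Of the stalk genes, Rpl12 had −0.85 ± 0.19 (adjusted p = 0.115), Rplp2 −0.52 ± 0.15 (adjusted p = 0.219), Rplp1 −0.34 ± 0.18 (adjusted p = 0.491) and Rplp0 −0.30 ± 0.16 (adjusted p = 0.504).

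**Figure D3:**
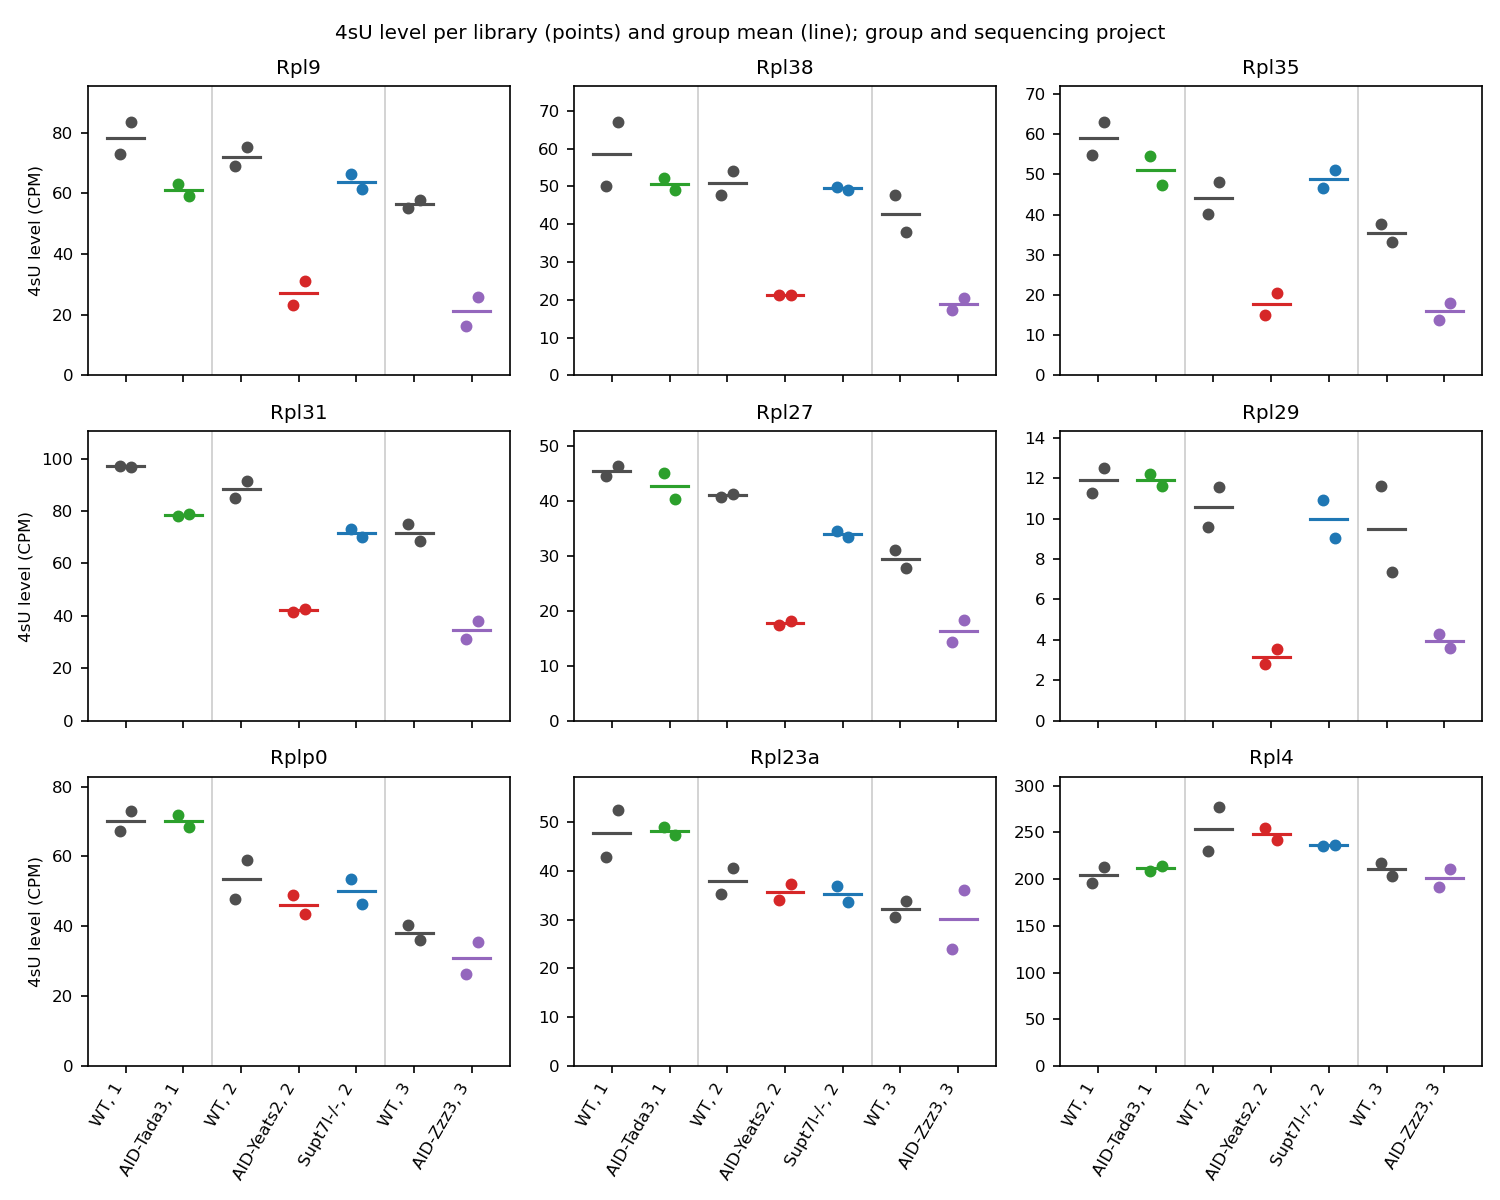
4sU level of 9 members in CPM (counts scaled to library size) per library (points), with the mean of 2 libraries (line), by group and sequencing project; grey lines part the projects and each panel starts at 0. In Rpl9, Rpl38, Rpl35, Rpl31, Rpl27 and Rpl29 the AID-Yeats2 and AID-Zzz3 clones lie below WT of their project (Rpl31 at 41.6 and 42.5 CPM in AID-Yeats2 against 85.0 and 91.6), while in Rpl23a and Rpl4 they overlap with it.

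The changes in the 2 ATAC mutants were set side by side, since they share no library. Of the 29 members that fell in AID-Yeats2, 8 were also called in AID-Zzz3 (27.6% of the former and 88.9% of the latter), and the exception was Rpl36, which in AID-Yeats2 had −1.11 ± 0.33 (adjusted p = 0.0584) on 17 to 43 counts a library. Across the 43 members the log2 fold changes of both mutants had a Pearson correlation of 0.87 and a Spearman correlation of 0.92. This is a description across genes, which are not independent replicates, and both axes share the WT lines though not the WT libraries. In the joint fit no member differed between the AID-Yeats2 and the AID-Zzz3 effect, at an adjusted or an unadjusted p under 0.05, and DESeq2 called none. Of all genes, edgeR called 0% in either direction, and DESeq2 called 0% lower and 0.0194% higher. At an unadjusted edgeR p under 0.05, 192 of all 15426 genes were lower and 186 higher. The median of the difference was −0.01, with a median SE of 0.22 per member, and single members ranged from −0.47 (Rpl36a) to 0.71 (Rpl36). Differences of the size of these SEs were therefore not detectable.

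**Figure D4:**
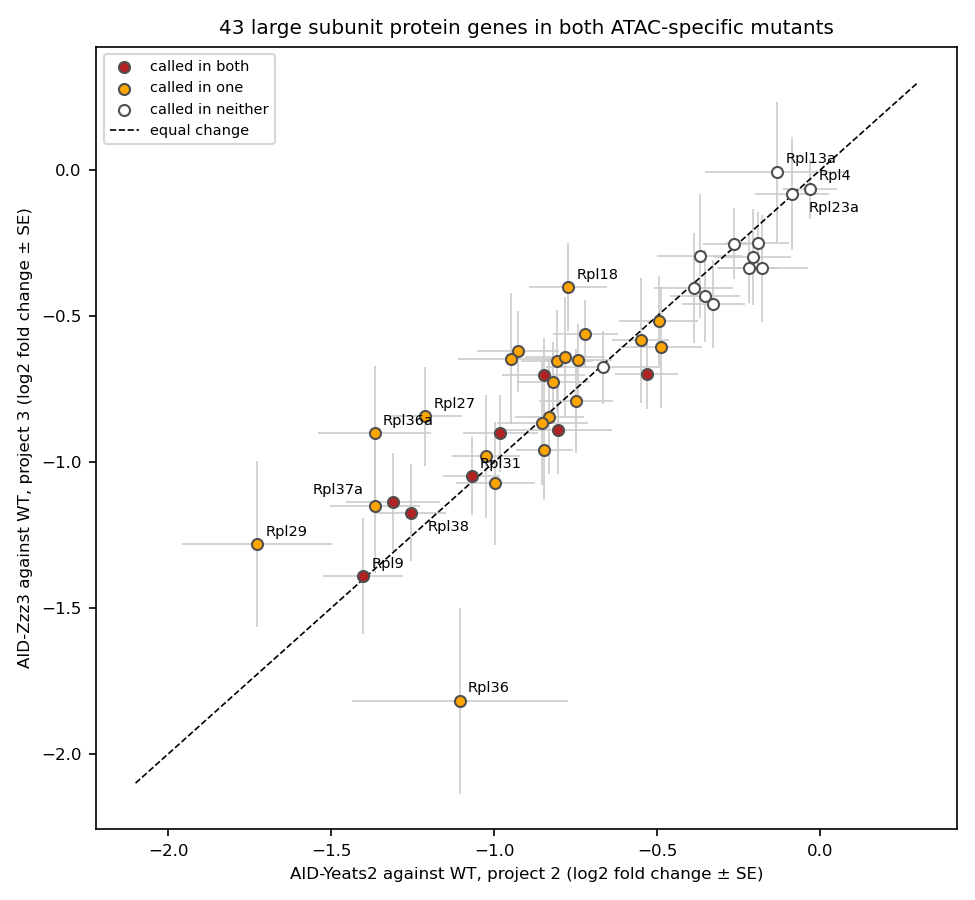
Log2 fold change of the 43 members in AID-Zzz3 (y axis, project 3) against AID-Yeats2 (x axis, project 2), each with bars of 1 SE; the dashed line marks equal change and colours mark the calls. The points lie along the line from Rpl4, Rpl23a and Rpl13a near 0 to Rpl9 at −1.40 and −1.39, with Rpl36 and Rpl36a farthest from it.

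Loss of Supt7l, the SAGA subunit, gave small values. The members took 0.280% and 0.259% of mouse counts in the Supt7l-/- clones, 1 between the WT values of 0.264% and 0.313% and 1 below both, a mean of 93.4% of WT. No member was called by edgeR or by DESeq2, while 2.02% of all genes were lower and 1.32% higher (1.67% lower with DESeq2). At an unadjusted edgeR p under 0.05, 7 members were lower, beside 1371 of all 14513 genes. The median was −0.12, 39 of 43 were below 0, and in 12 both clones lay below both WT libraries, as in 24.4% of all genes. The median was −0.23 without WT replicate 1, −0.016 without WT replicate 2, and −0.20 and −0.063 without Supt7l-/- replicate 1 or 2. Without WT replicate 1, 15 members were called, beside 8.91% of all genes, and the count was 1 with spike-in scaling (4.45%) and 2 with no filter (2.49%). Per spike-in count the members stood at 70.8% of WT, and the median of all genes moved by −0.36 on that scale. The primitive endoderm markers summed to 17.2 and 22.9 CPM in the clones against 11.6 and 12.9 in WT, with Sox17 at 0 in both clones, and the ES cell markers to 2461 and 2520 against 2790 and 2994; their part was not tested.

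Rpl31 had the smallest p in Supt7l-/- cells, at 73.2 and 70.1 CPM against 85.0 and 91.6 in WT (−0.30 ± 0.08, adjusted p = 0.0700). Rplp2 followed at 52.8 and 47.9 CPM against 57.0 and 75.1 (−0.39 ± 0.12, adjusted p = 0.101), then Rpl12 (−0.27 ± 0.10, adjusted p = 0.178) and Rpl27 (−0.27 ± 0.11, adjusted p = 0.182). Rpl36a had −0.37 ± 0.16 and Rpl13a −0.52 ± 0.23, the lowest value of all. In Rpl31, Rplp2, Rpl12 and Rpl27 the clones lay below WT without passing the test. The members nearest to 0 were Rpl8 (−0.01 ± 0.10), Rpl6 (−0.02 ± 0.16) and Rpl18 (0.03 ± 0.11). Rpl5 had −0.20 ± 0.11, Rpl11 −0.11 ± 0.11, Rplp0 −0.10 ± 0.12 and Rplp1 −0.19 ± 0.14.

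AID-Yeats2 and Supt7l-/- libraries of project 2 were then compared directly. New RNA of 29 members was lower in AID-Yeats2 than in Supt7l-/- cells and of none higher, beside 7.32% and 8.95% of all genes, with a median of −0.68. The counts were 18 without AID-Yeats2 replicate 1 (1.54% of all genes lower) and 18 without Supt7l-/- replicate 1 (2.15%). Rpl38 was at 21.4 and 21.2 CPM in AID-Yeats2 and at 49.7 and 49.2 in Supt7l-/- (−1.21 ± 0.11, adjusted p = 1.55e-05). Rpl9 differed by −1.23 ± 0.12 (adjusted p = 3.82e-05), Rpl35 by −1.46 ± 0.14 (adjusted p = 3.91e-05) and Rpl37a by −1.25 ± 0.14 (adjusted p = 6.75e-05). Rpl34 differed by −0.90 ± 0.10 and Rpl31 by −0.77 ± 0.09, with an adjusted p of 8.56e-05 each. Rplp1 (0.01 ± 0.14), Rpl23a (0.02 ± 0.11) and Rpl4 (0.07 ± 0.08) were nearest to 0, and with spike-in scaling these 3 values turned negative, at −0.13, −0.11 and −0.07. Rpl5 was lower by −0.62 ± 0.11 (adjusted p = 0.00449), Rpl11 by −0.70 ± 0.11 (adjusted p = 0.000876) and Rpl12 by −0.56 ± 0.11 (adjusted p = 0.00305). With spike-in scaling Rpl12 did not pass the test (−0.69, adjusted p = 0.0601). Without single libraries Rpl5 ranged from −0.72 to −0.53 and Rpl12 from −0.60 to −0.53. Neither call was kept in all of these fits. Rplp0 (−0.11 ± 0.12) and Rplp2 (−0.10 ± 0.12) did not pass the test on the main scale.

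In AID-Tada3 cells, which lack the subunit shared by both complexes, the members' share was 0.299% and 0.291% against 0.305% and 0.340% in WT, a mean of 91.4%. No member was called by edgeR or DESeq2, beside 0.0331% of all genes lower and 0% higher (0.159% lower with DESeq2). At an unadjusted edgeR p under 0.05, 7 members were lower, beside 630 of all 15099 genes. The median was −0.13, 39 members were below 0, and in 14 both clones lay below both WT libraries, as in 20.3% of all genes. Without WT replicate 1, 3 members were called (0.553% of all genes) and the median was −0.24. Without WT replicate 2, 2 members were called, a share below the 6.31% of all genes, and the median was −0.033; it was −0.078 without AID-Tada3 replicate 2. Per spike-in count the members stood at 81.4% of WT, on a scale where the median of all genes moved by −0.16.

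Rpl31 again had the smallest p in AID-Tada3 cells, at 78.2 and 79.0 CPM against 97.1 and 96.9 in WT (−0.30 ± 0.08, adjusted p = 0.465). Rpl9 was at 63.2 and 59.2 CPM against 73.0 and 83.3 (−0.35 ± 0.10, adjusted p = 0.466), and Rpl12 at 96.6 and 92.1 against 114 and 115 (−0.28 ± 0.08, adjusted p = 0.466). In these 3 genes both clones lay below WT, by less than the test could call. Rpl37a had −0.31 ± 0.12, Rpl36a −0.28 ± 0.12 and Rpl6 −0.23 ± 0.09. Rpl29 (0.00 ± 0.16), Rplp0 (−0.00 ± 0.09) and Rpl37 (−0.01 ± 0.15) were nearest to 0. Rpl5 had −0.14 ± 0.10, Rpl11 −0.17 ± 0.11, Rplp1 −0.11 ± 0.12 and Rplp2 −0.13 ± 0.09.

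The AID-Yeats2 effect was more negative than the AID-Tada3 effect in 8 members, each effect taken against WT of its own project in the joint fit. These were Rpl27 (difference −1.13 ± 0.17, adjusted p = 0.00299), Rpl31 (−0.77 ± 0.14, adjusted p = 0.00990), Rpl7 (−0.91 ± 0.16, adjusted p = 0.0103), Rpl29 (−1.73 ± 0.32, adjusted p = 0.0112), Rpl38 (−1.05 ± 0.20, adjusted p = 0.0153), Rpl35 (−1.11 ± 0.21, adjusted p = 0.0155), Rpl9 (−1.05 ± 0.23, adjusted p = 0.0405) and Rpl36a (−1.10 ± 0.26, adjusted p = 0.0465). Of all genes, 0.357% differed in that direction and 1.08% in the other. The median over members was −0.61, and all 43 were below 0. The count was 25 with spike-in scaling (2.02% of all genes), 14 with DESeq2 (0.499%) and 14 with no filter (0.546%). Without single libraries the median ranged from −0.73 to −0.51, and Rpl27 from −1.20 to −1.04, over 8 such fits. Most of the 8 calls were not kept when AID-Yeats2 replicate 1, WT replicate 2 of project 2 or either AID-Tada3 clone was left out. Calls over all genes were fewer in those fits too. The mutants come from different sequencing projects, which the joint fit accounts for only through each project's WT libraries.

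In WT cells of project 1, newly made RNA was compared with total RNA to see how the members divide between both pools. The members took 0.305% and 0.340% of counts in 4sU RNA and 1.12% and 1.46% in total RNA, so their share in new RNA was 24.9% of that in total RNA. The genes did not move together: 19 members were lower in 4sU RNA and 17 higher, beside 33% and 30.4% of all genes, with values from −4.29 (Rpl8) to 2.79 (Rpl34). In the plain and the Tir1/BirA line alike, 20 members were lower and 17 higher in both 4sU libraries than in either total RNA library, as were 41.1% and 41.7% of all genes. Per the labels' protocols, rRNA was depleted from total RNA only and 4sU RNA was fragmented before purification; the part of these steps was not tested. Values of the WT 4sU libraries differ slightly from those above because the scaling was computed with the total RNA libraries.

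The 6 members with the smallest p were all lower in new RNA. Rplp0 was at 69.1 and 75.9 CPM in 4sU RNA and at 577 and 617 in total RNA (−3.04 ± 0.15, adjusted p = 1.23e-05). Rplp1 was at 41.6 and 52.7 CPM against 564 and 630 (−3.66 ± 0.18, adjusted p = 1.23e-05), and Rpl26 had −3.64 ± 0.18 (adjusted p = 1.26e-05). Rpl32 had −3.52 ± 0.18 (adjusted p = 1.42e-05), Rpl8 −4.29 ± 0.23 (adjusted p = 1.52e-05) and Rpl4 −3.49 ± 0.20 (adjusted p = 1.86e-05). None of these overlapped between the pools, and in total RNA Rpl4 and Rpl8 led all members per length, at 2761 ± 569 and 2525 ± 577 RPKM (SD, n = 2). At the other end, Rpl34 was at 64.8 and 72.9 CPM in 4sU RNA and only at 6.42 and 13.1 in total RNA (2.79 ± 0.29, adjusted p = 0.000161). Of the stalk genes, Rplp2 (0.97 ± 0.17, adjusted p = 0.00208) and Rpl12 (0.47 ± 0.17, adjusted p = 0.0406) were higher in 4sU RNA while Rplp0 and Rplp1 were lower. The Rpl12 call was near the threshold. It was lost in most fits that left out 1 library, where the value ranged from 0.22 to 0.64. Both 5S rRNA partners, Rpl5 (1.08 ± 0.25, adjusted p = 0.00714) and Rpl11 (1.94 ± 0.22, adjusted p = 0.000235), were higher. Rpl27 (−0.00 ± 0.15), Rpl27a (−0.10 ± 0.22) and Rpl19 (−0.15 ± 0.18) were nearest to 0.

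The position of a member in this comparison moved with the sequence it shares with other genes, a feature chosen after the values were seen. The 12 members with a log2 value below −2.5 had a median of 72.3% of their coding 50-base stretches in transcripts of other genes, and the 14 members above 0.9 had a median of 100%. The 16 members with all stretches shared had a median log2 value of 1.09, and the other 27 one of −1.68. The Spearman correlation of both quantities across the 43 members was 0.62 (Pearson 0.54), as a description across genes measured in the same 4 libraries. The spread was wide, since Rpl13a and Rpl26 share 97.5% and 87.3% and lie at −3.35 and −3.64. The part of shared sequence in the result was not tested. The same share had a weak relation to the AID-Yeats2 values (Spearman −0.17), and the members with all stretches shared had a median of −0.79 there, beside −0.77 for the others.

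**Figure D5:**
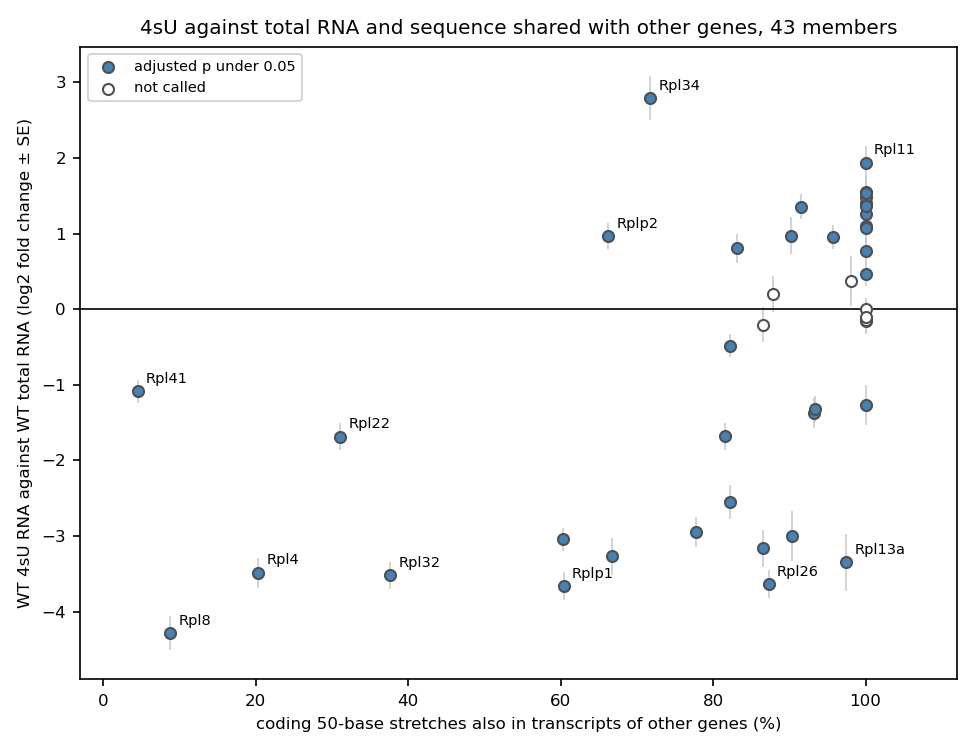
Log2 fold change of WT 4sU RNA against WT total RNA (y axis, bars of 1 SE) against the percent of a gene's coding 50-base stretches found exactly in transcripts of other genes (x axis), for the 43 members. The members with 100% shared stretches lie mostly above 0, with a median of 1.09, and Rpl8, Rpl4 and Rpl32, with 8.73%, 20.3% and 37.6%, lie below −3.

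Other features were set beside the values without a test. Members with at least 1 snoRNA in the span had a median of −0.61 in AID-Yeats2 (18 genes, 11 called) and −0.61 in AID-Zzz3, and those without had −0.95 (25 genes, 18 called) and −0.84. Rpl4, Rpl23a and Rpl13a, the members nearest to 0, all hold snoRNAs, and no gene that holds one was below −0.93 in AID-Yeats2. Across the 43 members the number of snoRNAs and the AID-Yeats2 value had a Spearman correlation of 0.42, and for AID-Zzz3 it was 0.39. The run of C and T around the RefSeq start had a Spearman correlation of 0.35 with the AID-Yeats2 value over 32 members. Only 21 of these starts lay within 50 bases of the GENCODE start. With a run of at least 8 the median was −0.75 (17 genes) and without it −0.85 (15 genes). Members with the ETS core had a median of −0.80 (13 genes) and those without it −0.83 (19 genes). Members with the E-box had a median of −0.39 in AID-Yeats2 (5 genes, 2 called) and −0.40 in AID-Zzz3, and those without it −0.82 (27 genes, 21 called) and −0.72. For the Sp1 core the AID-Yeats2 medians were −0.85 with it (21 genes) and −0.72 without (11 genes); the YY1 core and TATAAA stood in 3 genes each, with medians of −0.85 and −0.67. The WT level per length (0.15) and the gene's span (0.17) had weak correlations with the AID-Yeats2 value. The snoRNA counts were added after the values were seen.

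The WT lines were compared with each other, since WT replicate 2 carries the Tir1/BirA transgene. Over 3 projects with project as a block, no member was called by edgeR or DESeq2, beside 0.804% of all genes lower and 0.437% higher in the transgenic line (0.811% lower with DESeq2). At an unadjusted edgeR p under 0.05, 7 members were higher, beside 878 of all 14181 genes. The median was 0.09, with 37 of 43 members above 0; it was 0.044 to 0.053 without a WT library of project 1 or 2, and 0.21 without either WT library of project 3. With spike-in scaling it was −0.01 where the median of all genes was −0.11. Rpl5 had the smallest p (0.22 ± 0.07, adjusted p = 0.208), followed by Rpl39 (0.28 ± 0.11), Rpl7 (0.21 ± 0.09), Rpl19 (0.22 ± 0.09), Rpl23 (0.20 ± 0.09) and Rpl23a (0.21 ± 0.09). Rpl31, Rpl28 and Rpl21 were nearest to 0.

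Genes that work with the members were counted in the same fits, where 3.32% of all genes fell in AID-Yeats2 and 0.303% in AID-Zzz3. Of 32 small subunit protein genes, 12 fell in AID-Yeats2 and none rose, with a median of −0.40, and 7 fell in AID-Zzz3 with a median of −0.50. Rps24 (−1.12 ± 0.10 in AID-Yeats2 and −1.06 ± 0.12 in AID-Zzz3) and Rps18 (−1.14 ± 0.11 and −1.15 ± 0.15) fell in both. As a share of mouse counts the small subunit genes stood at 73.1% of WT in AID-Yeats2 and 72.5% in AID-Zzz3. None of the 32 was called in AID-Tada3 or Supt7l-/-, where their medians were −0.13 and −0.11. Of 6 elongation factor genes, 2 fell in AID-Yeats2, Eef2 (−0.59) and Eef1g (−1.49), and 1 in AID-Zzz3, Eef1g (−1.40). Of 30 assembly and export factors of the large subunit, 6 fell in AID-Yeats2, with a median of −0.094. None was called in AID-Zzz3, where their median was −0.099. The 6 were Fbl, Pes1, Nop2, Nop56, Gnl3 and Sbds, at −0.35 to −0.49.

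Paralogues of the members, which encode related proteins with their own patterns of expression, did not follow one direction. Rpl7l1 fell in AID-Yeats2 (−0.73 ± 0.12, adjusted p = 0.00200) and in AID-Zzz3 (−0.76 ± 0.12, adjusted p = 0.0311). Rpl39l rose in AID-Yeats2 (0.37 ± 0.10, adjusted p = 0.0359) and fell in AID-Tada3 (−0.90 ± 0.11, adjusted p = 0.0421). Its effect differed between these mutants by 1.26 ± 0.16 (adjusted p = 0.000879). Rpl39 itself, which lines the exit tunnel, had −0.67 ± 0.17 in AID-Yeats2 (adjusted p = 0.0587) and −0.13 ± 0.13 in AID-Tada3. Rpl22l1, Rpl36al and Rpl10l did not pass the test in any mutant against WT, and Rpl3l was not tested there.

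The authors' deposited table gives its own fold changes of the mutants against WT. Of the members with an adjusted p there, 41 of 42 were lower in AID-Yeats2 (48.9% of all genes), 38 of 40 in AID-Zzz3 (35.7%), 5 of 40 in Supt7l-/- (8.86%) and 0 of 43 in AID-Tada3 (0.0559%). The members' median log2 fold changes in the authors' deposited table were −1.12, −0.88, −0.45 and −0.30 in the same order. The authors' deposited table called no member higher in these 4 comparisons, and few genes of any kind. Genes higher there were 35 of 9485 in AID-Yeats2, 73 of 8634 in AID-Zzz3, 4 of 8406 in Supt7l-/- and 2 of 28618 in AID-Tada3. In AID-Yeats2 its calls over all genes were thus mostly lower (4641 genes), while in the fit above 3.32% were lower and 3.92% higher.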

How the data were processed

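For each of 3 projects the authors deposited tables of raw counts, 1 row per mouse gene or spike-in gene, with a median transcript length for each mouse gene. Per the file headers, the tables also hold the authors' log2 fold changes and adjusted p-values of each mutant against WT, which were used only where named. Mouse build mm10 and these tools stand in the submitters' processing notes, with no role given: DESeq2 1.16.1, HTSeq 0.6.1p1, STAR 2.5.3a, Bowtie2 2.2.8, cutadapt 1.10 and bcl2fastq 2.17.1.14. How multi-mapping reads were counted is not given in the sources used here.

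Each comparison was fitted on all genes that passed filterByExpr (minimum count 10), with TMM scaling and the quasi-likelihood test (robust) of edgeR 4.0.16 in R 4.3.3, and Benjamini-Hochberg adjustment over all genes tested at 0.05. That test gives every adjusted p for which no other tool is named. CPM are counts scaled to the TMM-effective library size, and a SE is that of the log2 coefficient. Mutants were compared with WT of their own project (2 or 3 residual degrees of freedom), and effects were compared in a joint fit of 14 4sU libraries. Spike-in scaling rested on spike-in genes that had a count of 10 or more throughout a project's 4sU libraries. The script was checked on simulated data. Alternatives were spike-in scaling, DESeq2 1.42.0 (size factors or test), no filter, a filter of 50 counts, named pseudogenes summed in, the joint fit, blocks and leaving out each library.

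WT 4sU and total RNA libraries come from the same 2 lines, so the numbers pair them; their deviations from the group means correlated at 0.51 over 14494 genes. The named genes of a comparison of 2 groups are the 6 members with the smallest p and the 3 nearest to 0, in mutants also Rpl5, Rpl11, Rplp0, Rplp1, Rplp2, Rpl12 and the targeted gene, and for levels the 5 highest and the 5 lowest. Other members are named as examples of a role, chosen with their values known. The members and lists were chosen with earlier results of these data known. Positions, snoRNAs and shared sequence are from GENCODE M21, whose spans equal those of the deposited tables for 40 of the 43 members, and start regions are RefSeq's. Figures were drawn with matplotlib 3.10.9, and tables joined with pandas 2.3.3.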

Additional observations from a re-analysis of the deposited data

Results flagged for a closer look

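The AID-Yeats2 and Supt7l-/- libraries, sequenced in 1 project, differed in 29 members by the test of the difference itself. The smallest p-values belonged to Rpl38 (log2 difference −1.21), Rpl9 (−1.23), Rpl35 (−1.46), Rpl37a (−1.25), Rpl34 (−0.90) and Rpl31 (−0.77), and both AID-Yeats2 clones lay below both Supt7l-/- clones in each of these genes.

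The AID-Yeats2 and AID-Tada3 effects differed in 8 members in the joint fit. The smallest p-values belonged to Rpl27 (log2 difference −1.13), Rpl31 (−0.77), Rpl7 (−0.91), Rpl29 (−1.73), Rpl38 (−1.05) and Rpl35 (−1.11). These mutants come from different sequencing projects.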

How the results depend on the processing

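With 2 libraries a group, few counts for Rpl36, Rpl29 and Rpl13a, and much shared sequence in most members, single values are uncertain. The members are measured in the same libraries, so the number of genes does not replicate their shared direction. The median of the members stayed negative under every alternative run in the 4 mutants against WT and in AID-Yeats2 against Supt7l-/-. Without 1 library it came as near to 0 as −0.033 in AID-Tada3 and −0.016 in Supt7l-/-. With spike-in scaling it was −1.27 in AID-Yeats2, −1.02 in AID-Zzz3, −0.49 in Supt7l-/-, −0.29 in AID-Tada3 and −0.94 for the difference of the AID-Yeats2 and AID-Tada3 effects, and −0.013 for Tir1/BirA against plain WT, where it was positive before. The cause was not tested, apart from the shift of all genes on that scale.

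Members called lower numbered 22 to 40 in AID-Yeats2 over all alternatives. In AID-Zzz3 the main calls were not kept without replicate 1 of the mutant. Most were also lost without its replicate 2, and some without WT replicate 1. Members called lower there numbered 40 with spike-in scaling, 20 with DESeq2 and 32 with no filter. They numbered 5 with at least 50 counts and 27 in the joint fit. In Supt7l-/- they were 1 with spike-in scaling, 2 with no filter and 0 to 15 without single libraries, and in AID-Tada3 0 to 3. For AID-Yeats2 against Supt7l-/- they were 18 to 26 without single libraries. For the difference of the AID-Yeats2 and AID-Tada3 effects they were 25 with spike-in scaling, 14 with DESeq2 or no filter and 1 to 16 without single libraries. The other counts of called members stayed within 1.5 times their value.

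The WT line as a replicate block gave 19 members lower and 17 higher in 4sU against total RNA, with a median of −0.14, so that the number of members called stayed the same, while calls over all genes went from 33% to 37.2% lower and from 30.4% to 36.5% higher. Clone numbers pair no samples: deviations of AID-Yeats2 and Supt7l-/- correlated at 0.042, and the replicate block gave 30 members lower in place of 29. No paired analysis was possible for mutants against WT, because WT replicates are lines and mutant replicates are clones.

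Values near 0 changed sign. In AID-Tada3, Rplp0 was 0.0058 with DESeq2 size factors, 0.0051 with its test and 0.0059 with no filter, and Rpl29 was −0.16 with spike-in scaling, −0.000799 with at least 50 counts and −0.0071 with pseudogenes. In Supt7l-/- Rpl18 was −0.34 with spike-in scaling, and in AID-Zzz3 Rpl13a was 0.019 with at least 50 counts. For AID-Yeats2 against Supt7l-/-, spike-in scaling gave −0.13 for Rplp1, −0.11 for Rpl23a and −0.069 for Rpl4. In 4sU against total RNA Rpl27 was 0.0076 with DESeq2 size factors, 0.0030 with its test and 0.054 with no filter. In the WT lines Rpl31 was 0.0053 with DESeq2 size factors and 0.0028 with no filter, and Rpl21 −0.085 with spike-in scaling.

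Without single libraries the following ranged across 0. In AID-Tada3 these were Rpl29 (−0.075 to 0.088), Rpl37 (−0.20 to 0.22), Rplp0 (−0.058 to 0.068) and Rplp1 (−0.26 to 0.070). In AID-Yeats2 they were Rpl13a (−0.39 to 0.16), Rpl23a (−0.19 to 0.019), Rpl4 (−0.16 to 0.11) and Rplp1 (−0.38 to 0.048). In Supt7l-/- they were Rpl18 (−0.057 to 0.12), Rpl6 (−0.22 to 0.21), Rpl8 (−0.098 to 0.091), Rplp0 (−0.24 to 0.064), Rplp1 (−0.39 to 0.037) and the members' share (86.1% to 102% of WT). In AID-Zzz3 they were Rpl13a (−0.19 to 0.12), Rpl23a (−0.42 to 0.17) and Rpl4 (−0.14 to 0.0016). For AID-Yeats2 against Supt7l-/- they were Rpl23a (−0.055 to 0.083) and Rplp1 (−0.13 to 0.15). For the AID-Yeats2 effect against the AID-Zzz3 effect it was the median (−0.20 to 0.25). In the WT lines they were Rpl21 (−0.067 to 0.19), Rpl28 (−0.16 to 0.069) and Rpl31 (−0.067 to 0.053). In 4sU against total RNA they were Rpl19 and the median (each −0.37 to 0.020), Rpl27 (−0.088 to 0.086) and Rpl27a (−0.44 to 0.21).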
